A study of Homo sapiens with 4 samples.

Results

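The genes described here are 38 genes of the PI3K, AKT, mTOR and FOXO pathway, picked by name from the 32673 genes of the deposited expression table by a rule that uses no expression value. They are the insulin-type receptors and their adaptors, the catalytic and regulatory subunits of class I PI3K, phosphatases and kinases of the AKT step, the GSK3 kinases, the TSC complex and RHEB, the mTOR complexes, the main outputs of mTORC1, and the FOXO transcription factors. A second list held 76 other genes of the same pathway. Both lists were drawn up with earlier results of these data known. RNA was sequenced in 2 libraries of TF1-BA cells and 2 libraries of TF1-BAR cells. TF1-BA is the human erythroleukaemia line TF1 that carries BCR-ABL, the tyrosine kinase fusion of chronic myeloid leukaemia, brought in by a retrovirus, and it is sensitive to the kinase inhibitor imatinib. TF1-BAR is its imatinib-resistant derivative, selected by prolonged exposure to the drug, and its medium held 2 µM imatinib, while the medium of both lines held GM-CSF, at 2 ng/ml by the sample labels and at another concentration by the study's methods. Each library came from 10000000 cells. The comparison asks which genes differ in expression between the sensitive and the resistant cells.

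The design is a single pair of cell lines. Growth in imatinib and resistance to it cannot be told apart, and no source says if imatinib was still in the medium at RNA extraction. The titles of the TF1-BAR libraries carry the word vector, and any effect of a vector would be part of every difference below. No label says that replicates were separate cultures, so p-values measure the spread between these libraries. In RNA from whole cultures, a change in every cell and a change in the share of cells that express a gene cannot be told apart.

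Signals from receptor tyrosine kinases, and from BCR-ABL, recruit class I PI3K to the membrane, where its catalytic subunits make the lipid that draws AKT to be activated by PDPK1. AKT then inhibits GSK3, the TSC complex and the FOXO factors. When the TSC complex is off, the small GTPase RHEB activates mTORC1, which phosphorylates S6 kinases and the EIF4E-binding proteins and raises translation. When AKT is low, FOXO factors enter the nucleus and switch on genes of quiescence, stress defence and cell death. Most of this signalling runs through phosphorylation, which mRNA levels do not show.

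The libraries held between 15465497 and 18042299 fragments, as recovered from the FPKM values (read pairs of a gene, scaled to its length and to the size of the library), and these numbers cover counting error only. The Pearson correlation of log2 values was at least 0.979 between libraries of a line and at most 0.956 between lines. All 10 marker genes of the TF1 line that were examined, among them CD34, KIT, GATA1 and CSF2RA, lay between 6.64 and 241.5 FPKM in every library. Of these markers, 6 were higher in both TF1-BAR libraries and 2 were lower in both, beside 69.3% of all genes without overlap. IL3RA and TFRC overlapped between the lines. The higher ones were CD34 (25.8, 24.7, 53.9 and 61.2 FPKM in the TF1-BA libraries 1 and 2 and the TF1-BAR libraries 1 and 2), KIT (28.4, 25.4, 58.7 and 59.3), CD33 (31.7, 29.4, 54.2 and 58.5), GATA2 (204.0, 194.7, 233.1 and 241.5), CSF2RB (47.7, 44.9, 59.1 and 53.2) and EPOR (20.6, 22.9, 24.7 and 28.5). The lower ones were GATA1 (75.4, 74.7, 65.9 and 70.6) and CSF2RA (7.90, 8.07, 6.64 and 7.28). Of the genes that mark other cells, CD3E and COL1A2 had at most 1 fragment and EPCAM at most 4 fragments in any library. KRT8 was higher in both TF1-BAR libraries, at 8.82, 9.94, 12.2 and 12.8 FPKM in that order, and PECAM1 lay between 23.3 and 25.7. CD3D was lower in both TF1-BAR libraries, at 19.2, 20.7, 5.74 and 6.36 FPKM in the same order, while CDH5 was at 0.733 and 0.628 FPKM for TF1-BA and at 3.28 and 3.40 for TF1-BAR. The part of these genes in the results was not tested.

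Of the 38 genes, 34 passed the filter of a mean FPKM of at least 0.5 and were tested, while IRS1, PIK3R2, INPP4B and SGK1 did not. Fold changes are log2 differences of FPKM + 0.5, TF1-BAR over TF1-BA, which understate the change of low genes, and p-values come from limma with Benjamini-Hochberg adjustment over the 15519 genes tested. None of the 34 genes passed both the adjusted p threshold of 0.05 and the absolute log2 fold change threshold of 1, which 4.75% of all genes tested did. By the adjusted p alone, 11 of the 34 (32.4%) differed, beside 26.9% of all genes tested, and 17 (50%) had an unadjusted p under 0.05, beside 42.2% of all genes. Of these 11, 9 rose in the TF1-BAR cells (26.5% of the 34, beside 16.3% of all genes tested) and 2 fell (5.88%, beside 10.5%). The libraries of the 2 lines did not overlap for 26 of the 34 genes (76.5%), beside 69.3% of all genes tested. The median log2 fold change was 0.155 in the 34 genes and 0.066 over all genes. The difference between these shares and those of the whole table was not tested.

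With the TF1-BA library 1 left out, or with library 2 left out, 0 of the 34 genes had an adjusted p under 0.05 in limma, and the calls over all genes fell from 4167 to 144 and 42. Without TF1-BAR library 1, 6 genes passed (PIK3CB, PIK3R5, PIK3CA, FOXO3, AKT2 and AKT1S1), and without TF1-BAR library 2 PIK3CB and PIK3R5 passed, in fits that called 3176 (20.5%) and 1028 (6.62%) of all genes. A line left with 1 library is assumed there to vary like the other. The 9 genes that rose had a median GC content of 52.0%, the 2 that fell had 38.2%, and all genes tested had 47.6%. The 23 tested members that were not called had a median of 50.5%, near that of the 9. Across all genes the median log2 fold change was -0.042 over the 5134 genes of lowest GC content and 0.132 over the 5135 of highest. When the trend of the fold change on GC content, length and level was removed, the called genes were 3 higher (PIK3R5, PIK3R1 and PIK3CG) and 3 lower (PIK3CB, AKT1 and RHEB), beside the 9 higher and 2 lower above. That step also centres the fold changes, with the median over all genes going from 0.066 to 0.002. The share of higher genes among those called went from 60.9% to 50.4% over all genes, and with the centring a more even split is no result of its own. Below, removal of the GC trend stands for this whole step. The parts of GC content, length, level and overall shift in it were not told apart.

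The levels spanned a wide range. EIF4EBP1, the EIF4E-binding protein that mTORC1 switches off, was the highest with 178.8, 191.8, 180.7 and 190.1 FPKM in the TF1-BA libraries 1 and 2 and the TF1-BAR libraries 1 and 2, the order used for all sets of values below. EIF4EBP2 followed at 27.9 to 32.0 FPKM and PIK3CB at 21.5 to 33.5, ranges that overlap. From MLST8 at 13.7 to 16.0 FPKM down to PIK3R3 at 1.13 to 2.26, neighbours in the order overlapped in their ranges. PHLPP2 was the lowest of the tested genes at 0.736 to 0.771 FPKM. Levels and ratios between genes depend on the gene lengths used for FPKM, and the lengths that fit the values differ widely from GENCODE 44 for several genes, such as GSK3B (8006 against 17871 bases), TSC2 (11121 against 20527), PIK3CA (9411 against 17189) and PIK3R1 (10767 against 16323).

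Of the 7 tested subunit genes of class I PI3K, 5 passed the adjusted p threshold, which 26.9% of all genes did, and all 5 were lost when either TF1-BA library was left out. Among the catalytic subunits, PIK3CB and PIK3CA fell and PIK3CG rose, and among the regulatory subunits PIK3R5 and PIK3R1 rose. PIK3CA and PIK3CB encode the ubiquitous alpha and beta catalytic subunits, PIK3CD encodes the delta subunit of white blood cells, and PIK3CG encodes the gamma subunit, which answers to G protein-coupled receptors. PIK3R5 encodes a regulatory subunit that pairs with the gamma subunit, while PIK3R1, PIK3R2 and PIK3R3 pair with the other catalytic subunits.

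The sequences upstream of PIK3R5, PIK3R1 and PIK3CB are shown because these PI3K genes changed and most of each upstream window lies outside the annotated gene. RefSeq windows of 250 bases before the start of transcription (GRCh38.p14) were matched for 34 of the 38 genes, and bases inside the GENCODE 44 gene are left out. Capitals mark the ETS motif CGGAAG or its reverse complement, and no other motif searched was found in the 3 windows. The regions are chr17:8965713-8965957 on the minus strand, chr5:68215506-68215719 on the plus strand and chr3:138834939-138835178 on the minus strand, each printed 5′ to 3′ in the direction of the gene.
PIK3R5: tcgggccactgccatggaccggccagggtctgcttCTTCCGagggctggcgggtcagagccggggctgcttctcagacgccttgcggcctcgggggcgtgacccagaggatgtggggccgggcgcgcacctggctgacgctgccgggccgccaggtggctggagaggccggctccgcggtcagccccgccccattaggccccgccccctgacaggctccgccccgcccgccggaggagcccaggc
PIK3R1: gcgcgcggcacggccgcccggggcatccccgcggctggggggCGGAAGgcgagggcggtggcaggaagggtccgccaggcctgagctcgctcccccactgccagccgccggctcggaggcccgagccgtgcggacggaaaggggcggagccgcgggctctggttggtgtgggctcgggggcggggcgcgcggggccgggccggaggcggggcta
PIK3CB: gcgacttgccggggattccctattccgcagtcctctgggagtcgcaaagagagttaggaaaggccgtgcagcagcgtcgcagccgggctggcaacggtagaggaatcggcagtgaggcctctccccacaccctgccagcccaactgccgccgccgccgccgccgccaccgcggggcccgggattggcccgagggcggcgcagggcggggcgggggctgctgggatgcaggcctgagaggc

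All 3 windows are rich in G and C, with 76.4%, 81.6% and 72.8% over 250 bases, against a median of 58.0% over 35116 promoters. The ETS letters begin at 215 bases before the start in PIK3R5 and 208 bases before it in PIK3R1. On either strand, 10 of the 34 windows hold CGGAAG, beside 16.5% of the 35116 promoters. These promoters leave out chromosome 8 and hold every listed start of a gene, while each of the 34 genes gives a single window. The shares set side by side here are thus of unlike kind. The FOXO motif GTAAACA was found in 1 of the 34, that of PIK3CA, and in 2.98% of all. The GATA letters AGATAA were found in 0 of the 34 and in 9.17% of all, and the E-box CACGTG in 2 of the 34, those of EIF4E and TSC2, and in 6.34% of all. A match is a description of these letters and says nothing of binding.

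PIK3R5 (chr17:8878911-8965712, minus strand) had the largest change of the 38 genes among those tested. Its values were 2.51 and 2.52 FPKM for TF1-BA and 5.14 and 5.53 for TF1-BAR, from 340, 292, 608 and 667 fragments. Both TF1-BAR libraries lay above both TF1-BA libraries. The mean rose from 2.51 ± 0.00340 to 5.33 ± 0.275 FPKM (SD, n = 2), a ratio of 2.12, and the log2 fold change was 0.95 (SE 0.0891, 95% interval 0.72 to 1.18, limma adjusted p = 0.00603). The fold ran from 0.81 to 1.11 on the log2 scale over the 15 alternatives, 4 of which put PIK3R5 past both thresholds. PIK3R6, the other regulatory subunit of the gamma enzyme, was at 3.13, 2.94, 2.58 and 2.72 FPKM (log2 fold change -0.16, limma adjusted p = 0.256). The ratio of PIK3R5 to PIK3R6 was thus 0.803 and 0.856 for TF1-BA and 1.99 and 2.03 for TF1-BAR.

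PIK3CG (chr7:106865278-106907145, plus strand), the catalytic partner of PIK3R5, was at 1.10 and 1.19 FPKM for TF1-BA and at 1.94 and 2.19 for TF1-BAR, from 118, 109, 181 and 209 fragments. The groups did not overlap, and the log2 fold change was 0.64 (SE 0.127, limma adjusted p = 0.0254). Its ratio of means was 1.80. Without TF1-BA library 1 or 2, or TF1-BAR library 1 or 2, the limma adjusted p was 0.140, 0.121, 0.0535 and 0.0982. PIK3CG remained the lowest of the 4 catalytic subunits in every library.

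PIK3CB (chr3:138652699-138834938, minus strand) was the highest catalytic subunit in all 4 libraries. It was at 32.8 and 33.5 FPKM for TF1-BA and at 21.6 and 21.5 for TF1-BAR, from 4639, 4068, 2676 and 2719 fragments. The mean fell from 33.1 ± 0.533 to 21.6 ± 0.0565 FPKM (SD, n = 2), with a log2 fold change of -0.61 (SE 0.0606, 95% interval -0.76 to -0.45, limma adjusted p = 0.00672). This difference is many times the spread within either line, and its size varied little, from -0.62 to -0.55, over the alternatives. PIK3CB and PIK3R5 passed the adjusted p threshold in 13 of the 15 alternatives each, more than any other of the 38 genes. They were lost without TF1-BA library 1, at limma adjusted p values of 0.0722 and 0.0653, and without TF1-BA library 2, at 0.0780 and 0.0664.

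PIK3CA (chr3:179148114-179240093, plus strand) was at 14.7, 14.6, 11.6 and 10.8 FPKM, from 2489, 2124, 1725 and 1639 fragments. Both TF1-BAR libraries were the lower ones, and the log2 fold change was -0.37 (SE 0.0729, limma adjusted p = 0.0254). Of its exon bases in the GENCODE 44 annotation, 19.8% are shared with KCNMB3 on the opposite strand, and the library kit did not mark strand, so reads of the pair cannot be told apart there. KCNMB3 itself had a log2 fold change of 0.01 (limma adjusted p = 0.939). PIK3CA lost its call without TF1-BA library 1 (0.166), TF1-BA library 2 (0.160) and TF1-BAR library 2 (0.0721), and after removal of the GC trend (0.0697).

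PIK3CD was at 9.28, 8.12, 6.17 and 7.46 FPKM, with both TF1-BAR libraries lower but a wide spread within each line, and did not pass (log2 fold change -0.33, 95% interval -0.65 to -0.02, limma adjusted p = 0.105). The summed level of the 4 catalytic subunit genes was 57.8 and 57.4 FPKM for TF1-BA and 41.4 and 42.0 for TF1-BAR. Within that sum PIK3CG took 1.91% and 2.07% for TF1-BA and 4.68% and 5.22% for TF1-BAR. PIK3CB took the largest share throughout, at 56.7%, 58.4%, 52.3% and 51.3%. The level of PIK3CB was 29.7 and 28.2 times that of PIK3CG for TF1-BA and 11.2 and 9.83 times for TF1-BAR. With 2 libraries against 2, a two-sided exact permutation test of a single share cannot give a p below 1 in 3, so the shares are descriptions.

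PIK3R1 (chr5:68215720-68301821, plus strand) was at 3.13 and 2.93 FPKM for TF1-BA and at 4.17 and 4.29 for TF1-BAR, without overlap (log2 fold change 0.42, SE 0.0890, limma adjusted p = 0.0290). Leaving out 1 library took its limma adjusted p to between 0.0691 and 0.183. PIK3R3 was at 2.26, 1.61, 1.13 and 1.39 FPKM, lower in both TF1-BAR libraries, but the TF1-BA libraries lay far apart and it did not pass (log2 fold change -0.46, 95% interval -0.93 to 0.01, limma adjusted p = 0.123). PIK3R2 was listed at 0, 0.0143, 0 and 0.0138 FPKM, which is 1 fragment in each of 2 libraries, and no fold is given. Of its exon bases, 76.4% are shared with a readthrough gene on the same strand, AC007192.1, which had 2 fragments in 1 library, and reads of these genes cannot be told apart there.

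The summed level of the 4 regulatory subunit genes among the 38 was 7.90 and 7.07 FPKM for TF1-BA and 10.4 and 11.2 for TF1-BAR, against the direction of the catalytic sum. This sum leaves out PIK3R6, at 3.13, 2.94, 2.58 and 2.72 FPKM, and with it each share below would be smaller. PIK3R5 took 31.8% and 35.6% of it in the TF1-BA cells and 49.2% in each TF1-BAR library. PIK3R3 took 28.6%, 22.8%, 10.8% and 12.4%, while PIK3R1 kept between 38.2% and 41.4%.

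**Figure D1:**
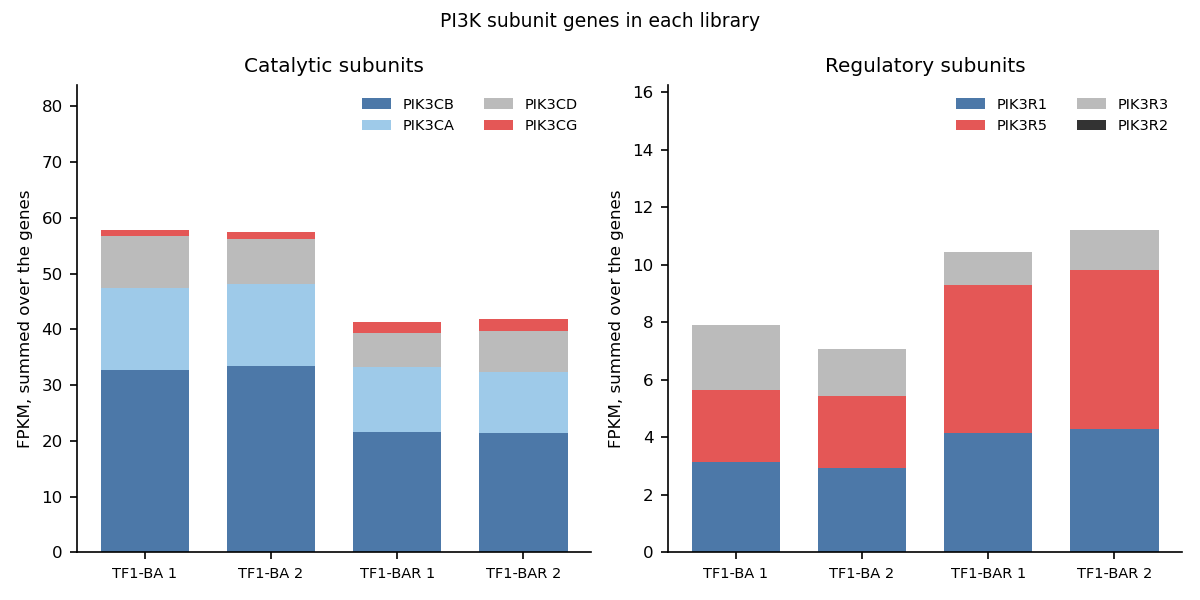
FPKM of the catalytic (left) and regulatory (right) subunit genes of class I PI3K, without PIK3R6, stacked in each of the 4 libraries, with both axes from 0. The catalytic stacks fall from 57.8 and 57.4 to 41.4 and 42.0 FPKM, while the regulatory stacks rise from 7.90 and 7.07 to 10.4 and 11.2 with PIK3R5 as the part that grows most.

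Upstream of PI3K, IGF1R rose and the other receptor and adaptor genes did not pass. IGF1R (chr15:98648971-98964530), the receptor of insulin-like growth factors, was at 3.22 and 3.32 FPKM for TF1-BA and at 4.26 and 4.16 for TF1-BAR, with a log2 fold change of 0.32 (SE 0.0851, limma adjusted p = 0.0489), just inside the threshold. INSR, the insulin receptor, was at 2.18, 2.34, 2.71 and 2.70 FPKM (log2 fold change 0.22, 95% interval -0.04 to 0.47, limma adjusted p = 0.166). After removal of the GC trend the limma adjusted p of IGF1R was 0.256. Of the docking proteins that link these receptors to PI3K, IRS2 was at 2.29, 2.24, 2.78 and 3.22 FPKM (log2 fold change 0.34, limma adjusted p = 0.0799), higher in both TF1-BAR libraries. IRS1 had 2, 1, 1 and 0 fragments, so that IRS2 made up at least 99.5% of the IRS level in each library.

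Of the 3 phosphatase genes among the 38, PHLPP1 and PHLPP2 were tested and did not pass. INPP4B, which removes phosphate from a lipid product of PI3K, was under the filter, with 2, 1, 25 and 14 fragments, so that the TF1-BAR libraries were the higher ones. Scaled to library size, the pooled ratio of TF1-BAR to TF1-BA was 13.7, with an exact 95% counting interval of 4.35 to 69.2, at a level of at most 0.112 FPKM. That interval leaves out the spread between libraries of a line. Over all genes with enough fragments, the variance between libraries averaged 3.85 (TF1-BA) and 6.36 (TF1-BAR) times that of counting alone. Tested without the filter, INPP4B had a limma adjusted p of 0.176. PHLPP1 and PHLPP2, which dephosphorylate AKT, were at 1.82, 2.03, 2.17 and 2.14 FPKM and at 0.763, 0.771, 0.736 and 0.767 FPKM (limma adjusted p = 0.409 and 0.945). The sign of both small fold changes turned under other processing.

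AKT2 rose while AKT1 did not pass. AKT2 (chr19:40230317-40285536), known for its part in glucose uptake, was at 6.98 and 7.29 FPKM for TF1-BA and at 8.71 and 9.87 for TF1-BAR (log2 fold change 0.36, SE 0.0913, limma adjusted p = 0.0456). AKT1, known for its part in survival and growth, was at 10.4 and 10.2 FPKM for TF1-BA and at 8.46 and 9.07 for TF1-BAR, without overlap (log2 fold change -0.22, 95% interval -0.42 to -0.03, limma adjusted p = 0.0906). The ratio of AKT1 to AKT2 was 1.49 and 1.40 for TF1-BA and 0.972 and 0.919 for TF1-BAR, and whether the TF1-BAR ratios lie above or below 1 depends on the gene lengths used. Their sum was 17.4, 17.5, 17.2 and 18.9 FPKM. After removal of the GC trend AKT2 had a limma adjusted p of 0.149, and AKT1 was among the lower genes.

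PDPK1, the kinase that activates AKT, was at 2.70, 2.59, 3.0 and 2.88 FPKM (log2 fold change 0.13, 95% interval -0.11 to 0.37, limma adjusted p = 0.354). SGK1, a kinase related to AKT, had 92, 88, 57 and 69 fragments, or 0.510, 0.569, 0.362 and 0.430 FPKM, just under the filter on average. The fit of all genes, filter removed, gave -0.22 on the log2 scale (limma adjusted p = 0.456).

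GSK3A rose, and its paralog GSK3B did not pass. GSK3A (chr19:42230186-42242625), one of the kinases that AKT inhibits, was at 8.41 and 8.92 FPKM for TF1-BA and at 10.4 and 11.2 for TF1-BAR (log2 fold change 0.30, SE 0.0792, limma adjusted p = 0.0486). GSK3B was at 5.45, 5.23, 6.62 and 6.29 FPKM, also without overlap (log2 fold change 0.25, SE 0.0801, limma adjusted p = 0.0768). The ratio of GSK3A to GSK3B was 1.54, 1.70, 1.58 and 1.77, with overlap between the lines. Their summed level was 13.9 and 14.2 FPKM for TF1-BA and 17.0 and 17.4 for TF1-BAR. GSK3A lost its call after removal of the GC trend (limma adjusted p = 0.103), with quantile normalization (0.0710) and with any 1 library left out (0.0655 to 0.267).

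**Figure D2:**
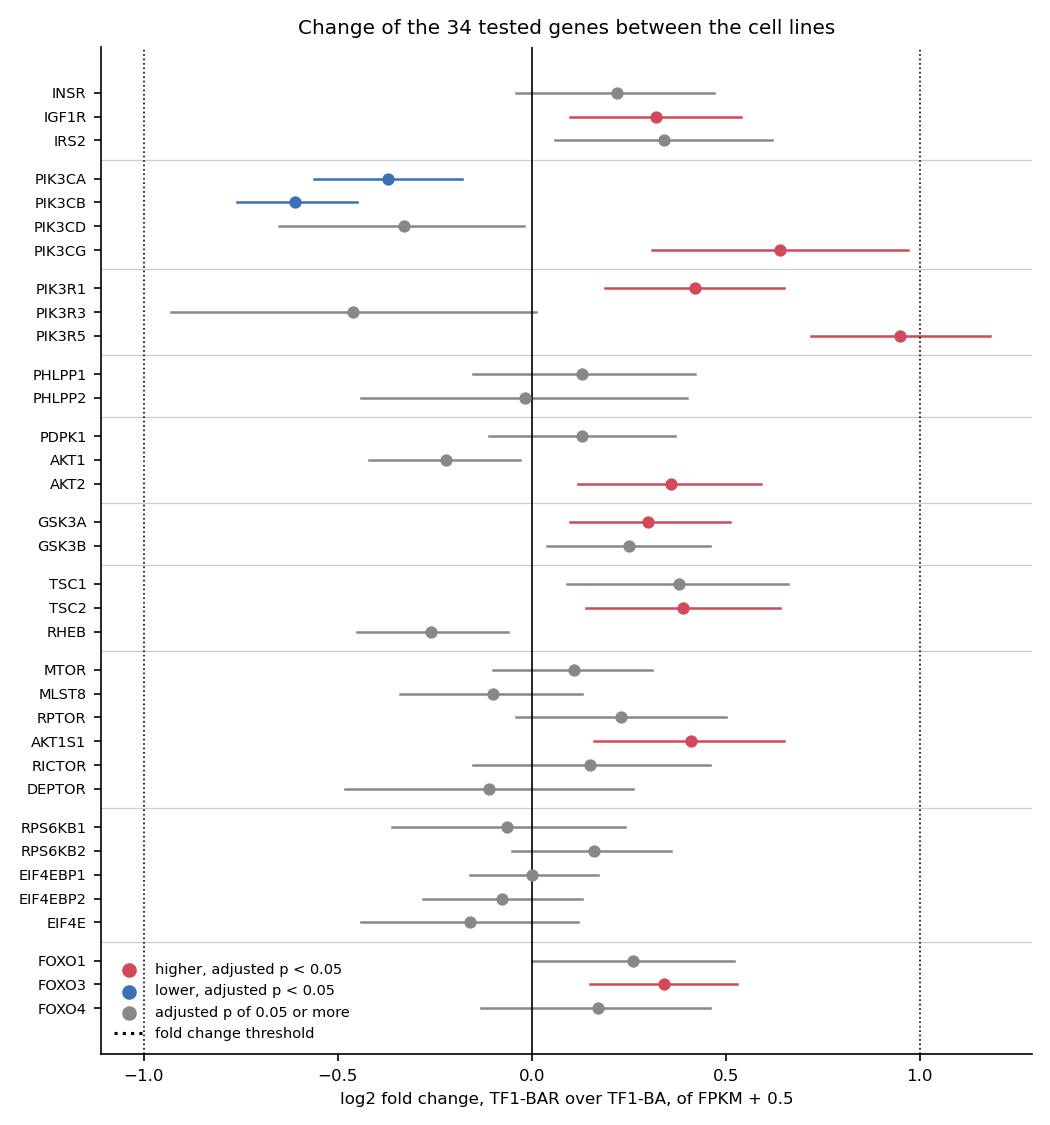
Log2 fold change (TF1-BAR over TF1-BA, of FPKM + 0.5) of the 34 tested genes with its 95% interval from limma, in role order, with 9 higher genes in red, 2 lower genes in blue and the rest in grey. PIK3R5 at 0.95 and PIK3CB at -0.61 have the largest changes in each direction, and none of the points lies beyond the dotted threshold of 1.

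TSC2 rose, and TSC1 and RHEB did not pass. TSC2 (chr16:2047465-2088720), the subunit that turns RHEB off, was at 3.36 and 3.72 FPKM for TF1-BA and at 4.61 and 4.97 for TF1-BAR (log2 fold change 0.39, SE 0.0960, limma adjusted p = 0.0414). TSC1, its stabilising partner, was at 1.80, 1.98, 2.50 and 2.72 FPKM (log2 fold change 0.38, 95% interval 0.09 to 0.66, limma adjusted p = 0.0618). RHEB, the GTPase that activates mTORC1, was at 11.5, 10.7, 9.17 and 9.24 FPKM (log2 fold change -0.26, 95% interval -0.45 to -0.06, limma adjusted p = 0.0633). The lines did not overlap for these 3 genes, as for 69.3% of all genes, and the ratio of TSC2 to RHEB was 0.292 and 0.347 for TF1-BA and 0.503 and 0.538 for TF1-BAR. TSC1 took between 34.8% and 35.4% of the summed TSC level in all 4 libraries. After removal of the GC trend TSC2 had a limma adjusted p of 0.133.

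Of the 6 genes of the mTOR complexes, AKT1S1 rose and the other 5 did not pass. AKT1S1 (chr19:49869033-49878459), an inhibitor within mTORC1 that AKT phosphorylates, was at 4.66 and 4.87 FPKM for TF1-BA and at 6.07 and 6.91 for TF1-BAR (log2 fold change 0.41, SE 0.0955, limma adjusted p = 0.0368). After removal of the GC trend AKT1S1 had a limma adjusted p of 0.0771.

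MTOR, the kinase of both complexes, was at 10.0, 10.4, 10.6 and 11.5 FPKM (log2 fold change 0.11, 95% interval -0.10 to 0.31, limma adjusted p = 0.357). RPTOR, the scaffold of mTORC1, was at 3.80, 4.07, 4.35 and 5.07 FPKM (0.23 on the log2 scale, limma adjusted p = 0.169), and RICTOR, that of mTORC2, was at 5.01, 5.10, 6.30 and 5.10 FPKM (0.15, limma adjusted p = 0.374). MLST8, a subunit of both complexes, was at 16.0, 15.8, 13.7 and 15.9 FPKM, and DEPTOR, an inhibitor of both, was at 6.32, 5.70, 6.32 and 4.82 FPKM. For RICTOR, MLST8 and DEPTOR the lines overlapped.

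None of the 5 outputs of mTORC1 passed, beside 26.9% of all genes that did, and 1 of the 5 did not overlap between the lines, beside 69.3% of all genes. EIF4EBP1 had a log2 fold change of 0.00109 with a 95% interval of -0.16 to 0.17, which leaves room for a change of about that size in either direction. EIF4EBP2 was at 32.0, 29.5, 27.9 and 30.4 FPKM (log2 fold change -0.0759, limma adjusted p = 0.506). EIF4EBP1 made up between 84.8% and 86.6% of the summed level of the binding proteins in every library. EIF4E, the cap-binding translation factor that they hold back, was at 5.94, 5.30, 5.34 and 4.63 FPKM (log2 fold change -0.16, limma adjusted p = 0.318). The binding proteins together were 35.5, 41.8, 39.1 and 47.6 times the level of EIF4E, whose values fit a length of 14067 bases, against 4971 in GENCODE 44.

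RPS6KB1 and RPS6KB2, the S6 kinases, were at 5.97, 5.42, 5.94 and 4.94 FPKM and at 4.43, 4.43, 4.99 and 5.00 FPKM. RPS6KB2 lay higher in both TF1-BAR libraries, with a log2 fold change of 0.16 (95% interval -0.05 to 0.36, limma adjusted p = 0.198), and RPS6KB1 overlapped between the lines (limma adjusted p = 0.713).

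FOXO3 rose, and FOXO1 and FOXO4 did not pass. FOXO3 (chr6:108559835-108684774), a FOXO factor of blood stem cells and red cell precursors, was at 11.9 and 11.5 FPKM for TF1-BA and at 14.4 and 15.5 for TF1-BAR (log2 fold change 0.34, SE 0.0748, limma adjusted p = 0.0316). FOXO1 was at 2.49, 2.73, 3.08 and 3.35 FPKM (log2 fold change 0.26, limma adjusted p = 0.123) and FOXO4 at 5.11, 6.27, 6.28 and 6.55 FPKM (log2 fold change 0.17, limma adjusted p = 0.327). FOXO3 made up between 56.1% and 61.0% of the summed FOXO level, which was 19.5 and 20.5 FPKM for TF1-BA and 23.8 and 25.4 for TF1-BAR. After removal of the GC trend FOXO3 had a limma adjusted p of 0.0738.

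Of the 76 other genes of the pathway, 71 were tested and 17 (23.9%) differed by the adjusted p, 9 higher and 8 lower, beside 26.9% of all genes. The lines did not overlap for 49 of them (69%, beside 69.3% of all genes), and their median log2 fold change was 0.062, beside 0.066 over all genes. By role, 3 of 12 other PI3K subunits and lipid enzymes, 2 of 9 other kinases and adaptors and 2 of 11 mTOR and TSC partners rose (25%, 22.2% and 18.2%, beside 16.3% of all genes). The first 3, named after their values were seen, were PIK3C2B, a class II PI3K (log2 fold change 0.48, limma adjusted p = 0.0341), and the lipid phosphatases INPP5D (0.33, limma adjusted p = 0.0230) and INPPL1 (0.35, limma adjusted p = 0.0391), which remove phosphate from the product of class I PI3K. All 3 lost their call without TF1-BA library 1, TF1-BA library 2 or TF1-BAR library 2 (limma adjusted p between 0.0688 and 0.212), and PIK3C2B also without TF1-BAR library 1 (0.0517). Removal of the GC trend took PIK3C2B to 0.0961 and INPPL1 to 0.0714. In the amino acid sensing branch that brings mTORC1 to the lysosome, 0 of 22 rose and 3 fell (13.6%, beside 10.5% of all genes). In the translation outputs 1 of 6 rose and 1 fell, and in the FOXO target genes 1 of 11 rose and 3 fell (9.09% and 27.3%, beside 16.3% and 10.5% of all genes). The split of the 71 genes depended on the scaling, with 13 higher and 8 lower as TPM, 7 and 10 with quantile normalization, and 7 and 11 after removal of the GC trend.

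DDIT4 was the single gene of both lists past both thresholds. It encodes a stress-induced inhibitor of mTORC1 that acts through the TSC complex, and it was at 236.8 and 224.5 FPKM for TF1-BA and at 99.7 and 107.3 for TF1-BAR (log2 fold change -1.15, SE 0.0656, limma adjusted p = 0.00307). Without TF1-BA library 2 its limma adjusted p was 0.0527. DDIT4 lies on chromosome 10, where the median log2 fold change over 593 genes was -0.35, and the part of the chromosome in the result was not tested. RHEBL1, a GTPase related to RHEB, rose from 7.09 and 6.52 to 10.1 and 12.7 FPKM (log2 fold change 0.70, limma adjusted p = 0.0210).

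TRIB2, a pseudokinase scaffold, rose from 13.2 and 12.9 to 22.3 and 24.8 FPKM (log2 fold change 0.83, limma adjusted p = 0.00643). SGK2, a kinase of the SGK family, rose from 0.596 and 0.636 to 1.39 and 1.28 FPKM (0.72 on the log2 scale, limma adjusted p = 0.0287), and it lies on chromosome 20, where the median over 440 genes was 0.39. PDCD4, an inhibitor of translation initiation on chromosome 10, fell from 55.1 and 55.9 to 38.7 and 31.5 FPKM (log2 fold change -0.66, limma adjusted p = 0.0169). RRAGA, a Rag GTPase that recruits mTORC1 when amino acids are present, fell from 14.7 and 16.5 to 10.3 and 10.5 FPKM (log2 fold change -0.56, limma adjusted p = 0.0130).

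Of the FOXO target genes, CITED2, a transcriptional cofactor of blood stem cells, rose from 22.5 and 23.6 to 38.5 and 45.2 FPKM (log2 fold change 0.84, limma adjusted p = 0.00829). CCNG2, an atypical cyclin linked to cell cycle arrest, fell from 5.04 and 5.51 to 3.47 and 3.21 FPKM (log2 fold change -0.59, limma adjusted p = 0.0157). Without TF1-BA library 1 or 2, RHEBL1, TRIB2, SGK2, PDCD4, RRAGA, CITED2 and CCNG2 all lost their call (limma adjusted p between 0.0651 and 0.130). SGK2 also lost it without TF1-BAR library 1 (0.0775) and after removal of the GC trend (0.0549), and SGK2, RHEBL1, RRAGA and CCNG2 lost it without TF1-BAR library 2 (0.0626 to 0.0816). The other lower targets, named after their values were seen, were CDKN1B, a cell cycle inhibitor (log2 fold change -0.45, limma adjusted p = 0.0122), and CAT, the catalase that removes hydrogen peroxide (-0.49, limma adjusted p = 0.0115). Both lost their call without TF1-BA library 1 or 2 (limma adjusted p between 0.0893 and 0.114), and CDKN1B also without TF1-BAR library 2 (0.0507).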

How the data were processed

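RNA of TF1-BA and TF1-BAR cells was sequenced as paired-end reads in 2 libraries per line. The authors removed adaptors and poor-quality reads and mapped to GRCh38 with TopHat2 2.0.13 (Cufflinks 2.2.0 and Cuffdiff 2.2.0 are also in the submitters' processing notes), and the values they deposited are FPKM per gene and library. The annotation release is not given in the sources used here. Groups and replicate numbers came from the labels. The authors tested with DESeq2, but FPKM are not counts, so limma 3.58.1 in R 4.3.3 (lmFit, eBayes with a trend) was used on log2(FPKM + 0.5) for the 15519 genes whose FPKM averaged 0.5 or more over the libraries, with the thresholds of an absolute log2 fold change of 1 and an adjusted p of 0.05. The code was tested on simulated data.

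Fragments were recovered as the numbers that made the FPKM of a gene whole, within 0.001 fragments, in all 4 libraries at the GENCODE 44 exon length (14220 genes) or at a fitted length (16632), for all but 1 of the 30853 genes above 0. They held 98.8% of each library's fragments. The library sizes were 18042299 and 15465497 (TF1-BA) and 15761642 and 16074303 (TF1-BAR).

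The members and lists were chosen with earlier results of these data known. All 38 genes were to be named. Of the other pathway genes, up to 8 with the largest fold changes past the adjusted p threshold, and those past both thresholds, were to be named, and promoters were to be shown for the members with the largest changes. The windows of PIK3CG and PIK3CA lie mostly inside the annotated gene and are not shown.

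Alternatives were 1 or 0.1 FPKM added, a filter at 1 FPKM or none, TPM, quantile normalization, eBayes without the trend, a replicate block, no fold threshold, and each library left out. Chosen after seeing the data were limma voom on the recovered fragments and removal of the trend of the fold change on GC content, length and level by splines of 4 degrees of freedom, alone and with the block.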

Additional observations from a re-analysis of the deposited data

How the results depend on the processing

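PIK3CB and PIK3R5 had the same direction under all 15 alternatives and were past the adjusted p threshold in 13. PIK3CG passed in 10 of the 15, PIK3R1 in 9, PIK3CA and FOXO3 in 8, AKT2 and AKT1S1 in 7, TSC2 in 6, and IGF1R and GSK3A in 5. The same-numbered libraries are not known to share a culture or day, and their deviations had a correlation of 0.0646. With the replicate number as a block, 9 of the 38 genes passed, 7 higher and 2 lower, and IGF1R (0.0679) and GSK3A (0.0506) were lost. That fit gave 3969 calls over all genes, 2347 higher and 1622 lower, and 755 past both thresholds.

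One gene of the 38 passed both thresholds with 0.1 FPKM added, as TPM and with voom, and 11 without the fold threshold. Instead of 9, the higher genes were 1 with no filter, 4 with quantile normalization, 3 with no trend, 3 after removal of the GC trend and 2 when the block was added to it. Instead of 2, the lower genes were 1 with no filter, 1 with no trend and 6 with voom. Of the other pathway genes, 3, 5 and 15 were higher with no filter, no trend and voom, and 4 were lower with no filter. Over all genes, 487 passed both thresholds with 1 FPKM added and 1152 with voom, against 737, and 851 were higher and 595 lower with no filter. The cause was not tested, apart from the 30853 genes tested without the filter.

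With each library left out in turn, the counts ran from 0 to 1 past both thresholds, from 0 to 4 higher and from 0 to 2 lower for the 38 genes, from 0 to 9 and from 0 to 7 for the other pathway genes, and from 42 to 783, from 25 to 1827 and from 17 to 1349 for all genes. The TF1-BA libraries account for the lowest counts, and 1 residual degree of freedom remains in these fits. Log2 fold changes ran from -0.21 to 0.000484 for MLST8, from -0.29 to 0.0681 for DEPTOR, from -0.18 to 0.0583 for RPS6KB1 and from -0.0491 to 0.0513 for EIF4EBP1.

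Fold changes near 0 turned sign. After removal of the GC trend, with or without the block, they were -0.0539 for PHLPP1, -0.0543 for PDPK1, -0.0238 for MTOR and -0.0417 for EIF4EBP1. Quantile normalization gave -0.0522 for EIF4EBP1, and TPM gave 0.0324 for PHLPP2. None of these passed the test. With 2 libraries a line, changes under the intervals given could not be detected.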
